A study of Homo sapiens with 4 samples.

Results

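The 6 DLX genes examined here, DLX1 to DLX6, encode homeodomain transcription factors of the Distal-less family. They were taken as the convergent pairs DLX1/DLX2 on chromosome 2, DLX5/DLX6 on chromosome 7 and DLX3/DLX4 on chromosome 17, out of 19974 protein-coding genes on chromosomes 1 to 22 and X. The peaks described are those of p63 IP replicate 1 whose summit lay inside a pair or within 500 kb of it, which were 8 of 4077 peaks. These peaks were chosen by summit position, and the genes and window with the replicate 1 tags, widths and folds and the replicate 2 matches in view, so all of these are given as a description, with no test.

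The cells were HSC-5, an established human line from a cutaneous squamous cell carcinoma, and all libraries came from this line without any treatment or genetic change named in the labels. Chromatin was crosslinked, and p63 was precipitated with the antibody D9L7L in 2 IP samples, against 2 Input samples without antibody. One peak list per IP replicate was analysed, each called against 1 control library that the headers do not tie to a named Input sample. Nothing in the labels tells whether the IP replicates were grown apart, so what differs between them may be technical. RNA was not analysed here.

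p63 is the p53-family transcription factor that maintains the basal layer of skin and other stratified epithelia. DLX factors pattern the limbs, the face and the ventral forebrain, and they act in teeth, hair and epidermis as well. The members of a pair lie tail to tail and are known in mouse to share enhancers, some of them far from either gene. Loss of the region around DLX5 and DLX6, and mutation of TP63 itself, both cause split hand and foot malformation in people. The question asked of the lists was where p63 sites lie relative to these pairs.

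Depth differed between the replicates. Replicate 1 kept 12687447 IP tags after removal of duplicates and replicate 2 kept 868393, which was 6.84% of the depth of replicate 1. The lowest tag count of any peak was 8 in replicate 1 and 4 in replicate 2.

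The region beside DLX1 and DLX2 held the strongest of the 8 peaks, with 37 tags. The other 7 peaks held 8 to 13 tags, and 5 of them stood at the minimum of 8, as did 25.8% of all replicate 1 peaks. At DLX5/DLX6 and DLX3/DLX4 no peak within 500 kb exceeded that minimum. One DLX gene, DLX4, held a summit within its own span. The 4 peaks at DLX1/DLX2 summed to 67 tags, while the 2 peaks at DLX5/DLX6 and the 2 at DLX3/DLX4 summed to 16 tags each.

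**Figure D1:**
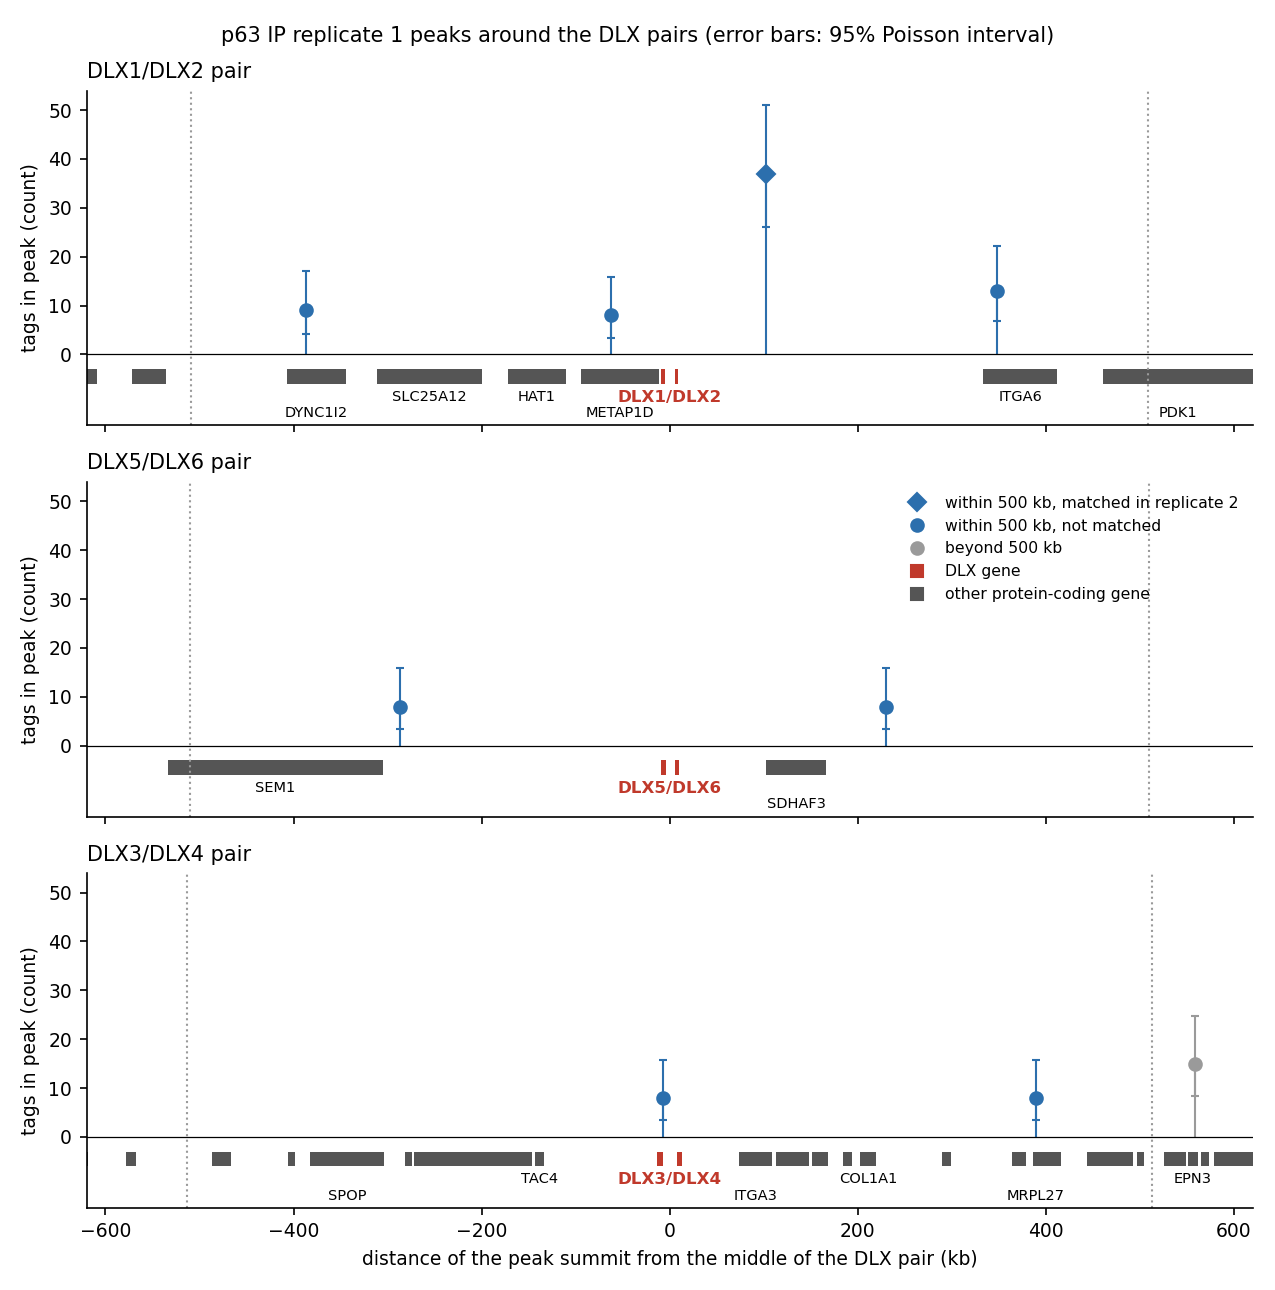
Each panel shows replicate 1 peaks around one DLX pair, with the distance of the summit from the middle of the pair in kb on the x axis and the tags in the peak on the y axis. Points carry 95% Poisson intervals, boxes are protein-coding genes, and dotted lines mark 500 kb beyond the pair. The 37-tag peak between DLX2 and ITGA6 stands above all others shown.

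The promoters that could be read from RefSeq (GRCh38.p14) are those of DLX1, DLX2 and DLX6. DLX3, DLX4 and DLX5 are named only. The 250 bases before each start are shown because no replicate 1 summit fell in them, the nearest lying 53.626, 71.270 and 239.644 kb from the windows of DLX1, DLX2 and DLX6. Capitals mark CATG, one form of the core of a p53-family half-site, which reads the same on both strands. The windows are chr2:172085257-172085506 on the plus strand, chr2:172102901-172103150 on the minus strand and chr7:97005303-97005552 on the plus strand, each written 5′ to 3′.
DLX1: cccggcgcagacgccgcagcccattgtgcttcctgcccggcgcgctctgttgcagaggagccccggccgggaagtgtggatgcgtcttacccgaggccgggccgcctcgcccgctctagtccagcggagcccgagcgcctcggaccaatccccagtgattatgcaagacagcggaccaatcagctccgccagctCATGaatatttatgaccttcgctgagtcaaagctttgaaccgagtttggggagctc
DLX2: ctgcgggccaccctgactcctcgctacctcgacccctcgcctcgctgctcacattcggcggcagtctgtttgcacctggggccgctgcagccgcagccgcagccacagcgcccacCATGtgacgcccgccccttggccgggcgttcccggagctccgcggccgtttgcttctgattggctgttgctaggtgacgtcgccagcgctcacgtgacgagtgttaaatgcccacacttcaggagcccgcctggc
DLX6: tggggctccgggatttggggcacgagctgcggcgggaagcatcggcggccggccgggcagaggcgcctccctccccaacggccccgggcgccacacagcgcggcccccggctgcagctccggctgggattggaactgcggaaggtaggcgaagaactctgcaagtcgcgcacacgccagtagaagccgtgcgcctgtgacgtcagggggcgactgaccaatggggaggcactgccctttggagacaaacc
DLX1 and DLX2 held 1 CATG each, and DLX6 held 0. CATG occurred in 47.6% of 35116 promoter windows of this length, so its presence is ordinary. The spaced form CATGNNNNNNCATG, also read on both strands, was in none of these windows and in 0.296% of all promoters. The strands of DLX1 (plus) and DLX2 (minus) show that this pair is transcribed tail to tail.

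DLX1 and DLX2, which specify inhibitory neurons of the forebrain and pattern the upper jaw, lie 9.763 kb apart (chromosome 2, 172085507 to 172089674 and 172099438 to 172102900). The strong peak lay at 172196910 to 172197281, on the DLX2 side, with 37 tags (95% Poisson interval 26.1 to 51.0, covering counting error only) over 372 bp. Its summit was 94.252 kb from DLX2 and 107.478 kb from DLX1. DLX2 was its nearest protein-coding gene, and no other protein-coding gene lay in between. The next gene on the far side, the laminin receptor subunit ITGA6, began 230.184 kb away. Between DLX2 and ITGA6 the annotation lists 5 non-coding genes, and the summit lay in 0 of them.

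By the fold enrichment that the authors' peak caller gave, this peak ranked 7 of 4077 in replicate 1, at 61.88. By score it ranked 28, at 354.96, and by tags 366. The score rises as the caller's p-value falls. Many of the peaks with more tags had low fold, as the plot of tags against fold shows. A score of 100 or more was reached by 15.7% of replicate 1 peaks, and by 1 of the 8 peaks at the DLX pairs, which was this one.

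**Figure D2:**
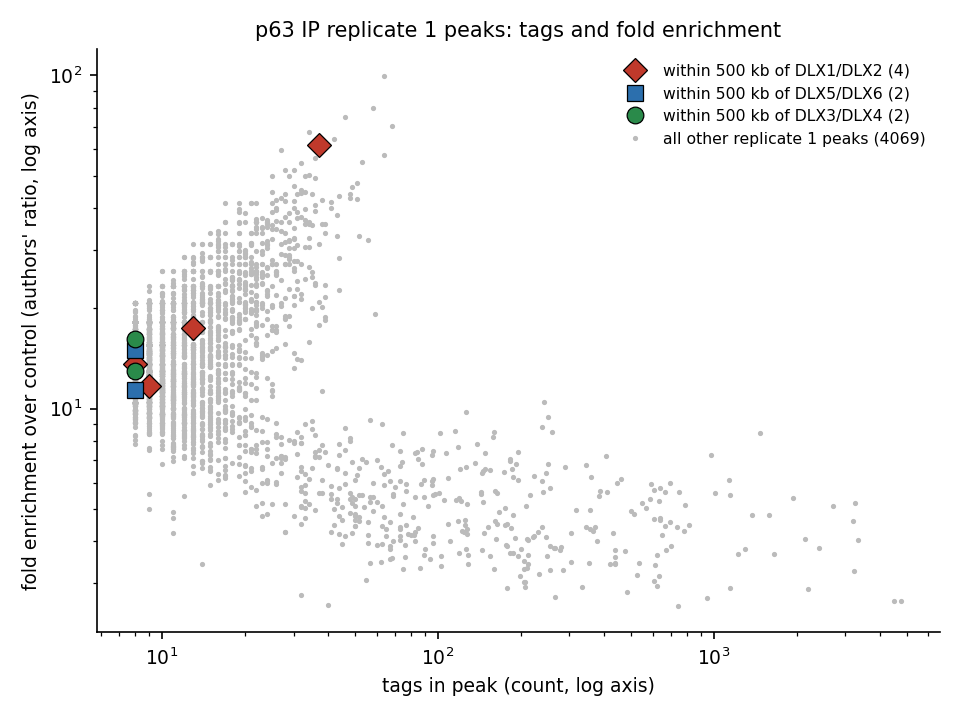
Tags per peak (x axis, count, log scale) against the fold enrichment over control given by the authors (y axis, ratio, log scale) for all 4077 replicate 1 peaks, with the 8 peaks within 500 kb of a DLX pair coloured by pair. The 37-tag peak near DLX1/DLX2 lies in the upper branch at 61.88, while the others hold 8 to 13 tags.

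The remaining peaks at this pair were much smaller. A peak of 8 tags (3.45 to 15.8) lay 53.876 kb before DLX1, inside METAP1D, which encodes a mitochondrial methionine aminopeptidase. A peak of 9 tags (4.12 to 17.1) lay 377.561 kb before DLX1, inside the dynein subunit gene DYNC1I2, with SLC25A12, HAT1 and METAP1D in between. Another, of 13 tags (6.92 to 22.2), lay 339.922 kb beyond DLX2 and 15.486 kb into ITGA6. Because these peaks lie inside other genes, proximity alone assigns none of them to a DLX gene. Counting every peak within 500 kb, METAP1D and HAT1 had the same 4 peaks as DLX1 and DLX2.

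DLX5 and DLX6, which pattern the lower jaw and the limb and promote bone formation, had 2 distant peaks (chromosome 7, DLX6 at 97005553 to 97011040 and DLX5 at 97020396 to 97024831). One peak of 8 tags (3.45 to 15.8), with a fold of 15.01, lay 277.111 kb before DLX6 at 96728364 to 96728561. It was 18.596 kb from SEM1, which encodes a small proteasome subunit and lies in the split hand and foot locus, and no protein-coding gene separated it from DLX6. The other, also of 8 tags with a fold of 11.35, lay 220.365 kb beyond DLX5 at 97245058 to 97245274, with the succinate dehydrogenase assembly gene SDHAF3 in between and inside a non-coding gene. SDHAF3 had the same 2 peaks within 500 kb. The interval of 295.706 kb between SEM1 and DLX6 thus held 1 peak, and the 92.866 kb between DLX5 and SDHAF3 held 0. DLX6-AS1, the long non-coding RNA that overlaps DLX6, held 0 peaks, the nearest summit being 231.131 kb away.

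DLX3 and DLX4 had a peak inside the pair. DLX3 drives late keratinocyte differentiation and hair and tooth formation, and its mutation causes tricho-dento-osseous syndrome, while DLX4 is expressed in placenta and mutated in some orofacial clefts. DLX4 (chromosome 17, 49968572 to 49974959) held a summit at 49974315 to 49974530, with 8 tags (3.45 to 15.8) over 216 bp at a fold of 12.98. This summit lay 565 bp from the end of DLX4 that faces DLX3, and 15.611 kb from DLX3 itself (49990005 to 49995224). Its fold was below the median of 13.24, and 55.9% of replicate 1 peaks had at least this fold. A second peak of 8 tags, with a fold of 16.15, lay 376.558 kb beyond DLX3 in MRPL27, a mitochondrial ribosomal protein gene, with 8 protein-coding genes in between from ITGA3 to XYLT2. No other gene had exactly these 2 peaks within 500 kb.

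Set side by side, the pairs on chromosomes 2 and 17 share neighbours of the same families: an integrin alpha gene and then a pyruvate dehydrogenase kinase gene follow on the same side. Between DLX2 and ITGA6 there were 324.435 kb with 1 peak of 37 tags, and ITGA6 held 1 peak of 13 tags. Between DLX3 and ITGA3 there were 60.885 kb with 0 peaks, and ITGA3 held 0, with its nearest summit 81.716 kb away. The strong site near DLX2 therefore had no called counterpart in the shorter interval beside DLX3, and a site too weak to reach 8 tags could not be seen at this depth.

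The limit of 500 kb cut off some larger peaks. Farthest out within it lay the 9-tag peak at 377.561 kb from DLX1/DLX2 and the 8-tag peak at 376.558 kb from DLX3/DLX4. Nearest beyond it at DLX3/DLX4 lay a 15-tag peak 544.930 kb beyond DLX3, in the epsin gene EPN3. At DLX5/DLX6 this was a 17-tag peak 675.121 kb before DLX6, near the mitochondrial carrier gene SLC25A13. These 2 peaks held more tags than any peak counted at DLX5/DLX6 or DLX3/DLX4. The further peaks out to 1 Mb from these 2 pairs held 8 to 16 tags.

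Closeness to a p63 summit differed between the DLX genes and was set against all protein-coding genes. A summit in the span or within 10 kb was found for 1 of the 6 DLX genes, against 10.2% of all genes, and in the span alone for the same gene, against 7.12%. Within 50 kb were DLX4 and DLX3, 2 of 6 against 19.9%. Within 100 kb were those and DLX1 and DLX2, 4 of 6 against 30.0%, but each pair is 1 locus and counts for both its genes, so these are 2 of 3 loci. Within 500 kb all 6 had a summit, as did 70.0% of all genes. The nearest summit was 0 kb from DLX4, 15.611 kb from DLX3, 53.876 kb from DLX1, 67.807 kb from DLX2, 220.365 kb from DLX5 and 234.156 kb from DLX6, where the median over all genes was 235 kb. In this order DLX4 and DLX3 share 1 peak, and DLX1 and DLX2 share another. DLX5 and DLX6 also share their nearest peak and lie near the median gene. A summit as close or closer was found for 7.12% of all genes at the distance of DLX4, 11.7% at that of DLX3, 20.8% for DLX1, 23.7% for DLX2, 48.2% for DLX5 and 49.9% for DLX6.

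**Figure D3:**
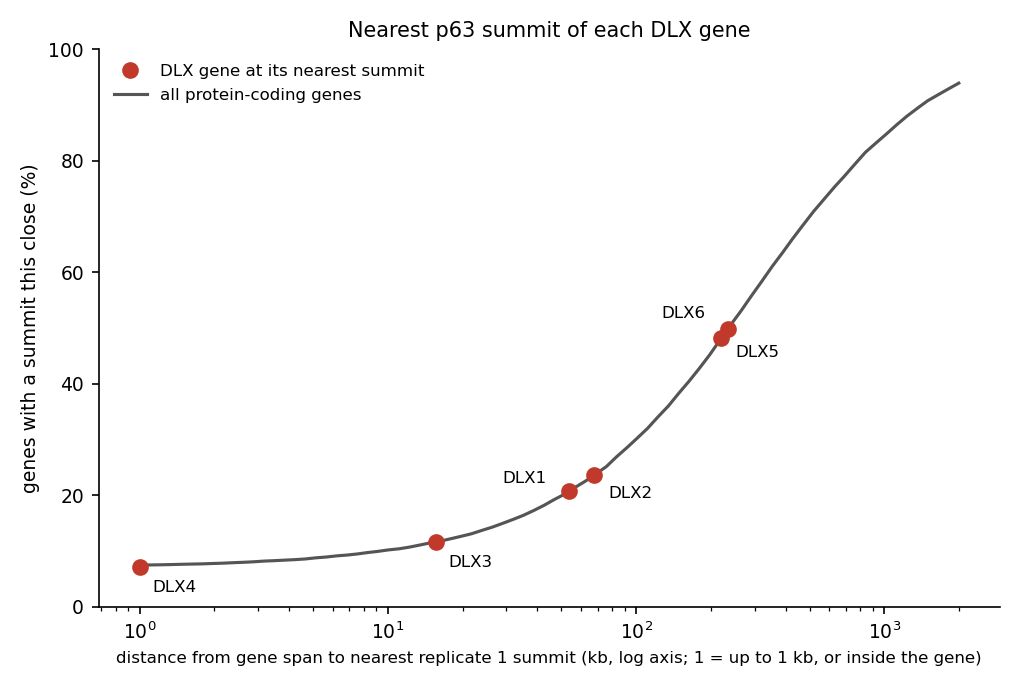
The curve gives the percentage of 19974 protein-coding genes (y axis) with a replicate 1 summit within the distance on the x axis (kb, log scale), and each red point places a DLX gene at the distance of its nearest summit. DLX4 and DLX3 lie at the low end, at 0 and 15.611 kb, and DLX5 and DLX6 close to the median of 235 kb. DLX4, with a distance of 0 kb, is drawn at 1 kb because the axis is logarithmic.

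DLX1 and DLX2 had more peaks within 500 kb than the other pairs, and the strongest peak, which is given as a description. Their ITGA6 peak, at a fold of 17.5, was also above every peak at the other pairs. Their peaks in DYNC1I2 and METAP1D, at 11.67 and 13.61, were not. Within 1 Mb, DLX1/DLX2 and DLX3/DLX4 had 6 peaks each. DLX1 and DLX2 had 4 peaks within 500 kb, a number reached by 13.9% of all genes. DLX3, DLX4, DLX5 and DLX6 had 2 each, reached by 43.9%, and the median gene had 1. A strongest peak of fold 61.88 or more within 500 kb was found for 95 of 19974 genes (0.476%), DLX1 and DLX2 among them. Only 7 peaks reached that fold, so these are the genes around those peaks, and METAP1D and HAT1 are also among them. The strongest fold was 16.15 around DLX3 and DLX4 and 15.01 around DLX5 and DLX6, values reached by 42.4% and 51.3% of genes. Gene density ran differently: 6 other protein-coding genes lay within 500 kb of DLX1/DLX2, 2 of DLX5/DLX6 and 21 of DLX3/DLX4.

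Whether the sites recurred in replicate 2 was asked by spacing, because that list uses another genome numbering. A pair of peaks counted as matched when the offset between their summits was found again, to within 100 bp, in 2 or more further pairs of peaks under 10 Mb away. Of the 8 peaks, 1 was matched, the 37-tag peak near DLX2, against 5.42% of 3875 replicate 1 peaks under 1 kb wide (210 pairs in all). Its partner in replicate 2 had 6 tags (95% Poisson interval 2.20 to 13.1), spanned 167 bp and had a fold of 132.31. In that list 28.2% of peaks had 6 or more tags and 37.8% had at least this fold, so the partner was not among its strongest peaks. Folds were not compared between the lists, which rest on different depths and controls.

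The match rested on 3 other pairs on chromosome 2. They lay 1.336, 4.973 and 8.026 Mb from the site in replicate 1, and their spacing in replicate 2 differed by 20, 29 and 21 bp. The genes nearest to them were CDCA7, HNRNPA3 and CWC22, at 163.847, 42.449 and 215.557 kb. Their tags in replicates 1 and 2 were 10 and 4, 53 and 9, and 22 and 7, in the same order. The site was no longer matched at a tolerance of 20 bp, or when supporting pairs had to lie within 2 Mb.

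**Figure D4:**
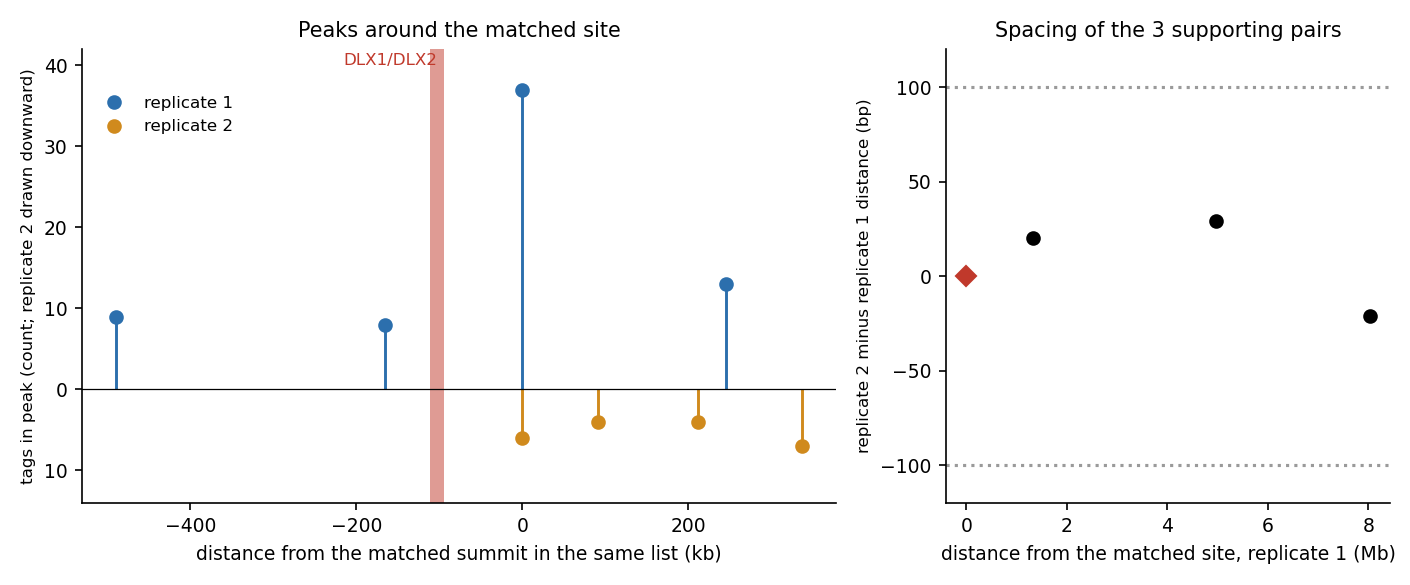
Left, peaks of replicate 1 (upward) and replicate 2 (downward) by their distance in kb from the matched summit of the same list, with tags on the y axis and the DLX1/DLX2 pair as a red band. Right, for the 3 supporting pairs, the distance in replicate 2 minus that in replicate 1 in bp (y axis) against the distance from the site in Mb (x axis); all lie within 29 bp, and dotted lines mark the tolerance of 100 bp.

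Aligned on that site, both lists held 4 peaks in the stretch that reaches 500 kb either side of DLX1/DLX2, and they had 1 in common. The other 3 replicate 2 peaks lay 91.614, 211.468 and 337.276 kb beyond the matched summit, with 4, 4 and 7 tags, all on the ITGA6 side. The 7-tag peak was only 92 bp wide. The closest approach of unmatched peaks from the 2 lists was 34.202 kb, between the ITGA6 peak of replicate 1 and the peak at 211.468 kb in replicate 2. This alignment assumes that distances in the 2 numberings are equal along the stretch.

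All 8 peaks come to few tags when scaled to the kept depth of replicate 2. The 8 to 13 tags of the 7 unmatched peaks come to 0.548 to 0.890, below the 4 tags of the smallest peak in that list. The 37 tags of the matched peak come to 2.53, also below 4, although its partner held 6 tags. This scaling therefore does not separate the matched peak from the others, and depth as a cause was not tested. At DLX5/DLX6 and DLX3/DLX4 no matched pair lay within 10 Mb, the nearest being 19.995 and 18.896 Mb away. This restates the lack of matches there and gives no reason for it. The 10-tag peak whose nearest gene was CDCA7 was matched. It is 1 of the 3 pairs that support the match near DLX2, so it is not a separate case. In the alignment above, the unmatched peaks at DLX1/DLX2 had no replicate 2 peak closer than 34.202 kb. Whether the 7 sites recur was not settled by these lists.

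Genes that work with DLX factors were read from lists chosen with earlier results of these data known. Of 30 regulators and partners of DLX genes in ectoderm, limb and face, 6 (20.0%) had a replicate 1 summit in the span or within 10 kb, against 10.2% of all genes. Within 100 kb they were 12 of 30, against 30.0%. In the span alone they were 5 of 30, against 7.12%. A longer span has more room for a summit, and gene length was not accounted for. The fibroblast growth factor receptor FGFR2 had 25 tags (16.2 to 36.9) at a fold of 49.92. TP63 itself had 2 peaks, the stronger with 38 tags (26.9 to 52.2) and a fold of 20.22, and the bone morphogenetic protein BMP7 had 22 tags (13.8 to 33.3). These TP63 and BMP7 peaks were matched in replicate 2. The T-box factor TBX2 had 16 tags with the summit 2.834 kb outside the gene, WNT10A, a ligand of tooth and hair development, had 12, and the surface ectoderm factor TFAP2A had 9.

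Lists from tissues where DLX genes act outside the skin, and other homeobox genes, were counted beside the same shares of all genes, 10.2% within 10 kb and 30.0% within 100 kb. Of 12 bone and tooth matrix genes and their activators, 0 had a summit within 10 kb and 1 (8.33%) within 100 kb. Among 12 genes of forebrain interneurons, 1 (8.33%) had a summit within 10 kb, the transcription factor MAF with 8 tags (3.45 to 15.8), and the same number within 100 kb. The last list held 30 other homeobox genes, most of them in the NK-like class to which DLX genes belong. Of these, 1 (3.33%) had a summit within 10 kb, BARX2 with 11 tags (5.49 to 19.7), and 5 (16.7%) within 100 kb. The median distance to the nearest summit was 120 kb for the regulators and partners, 479 kb for the bone and tooth genes, 672 kb for the interneuron genes and 328 kb for the homeobox genes, beside 235 kb for all genes.

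**Figure D5:**
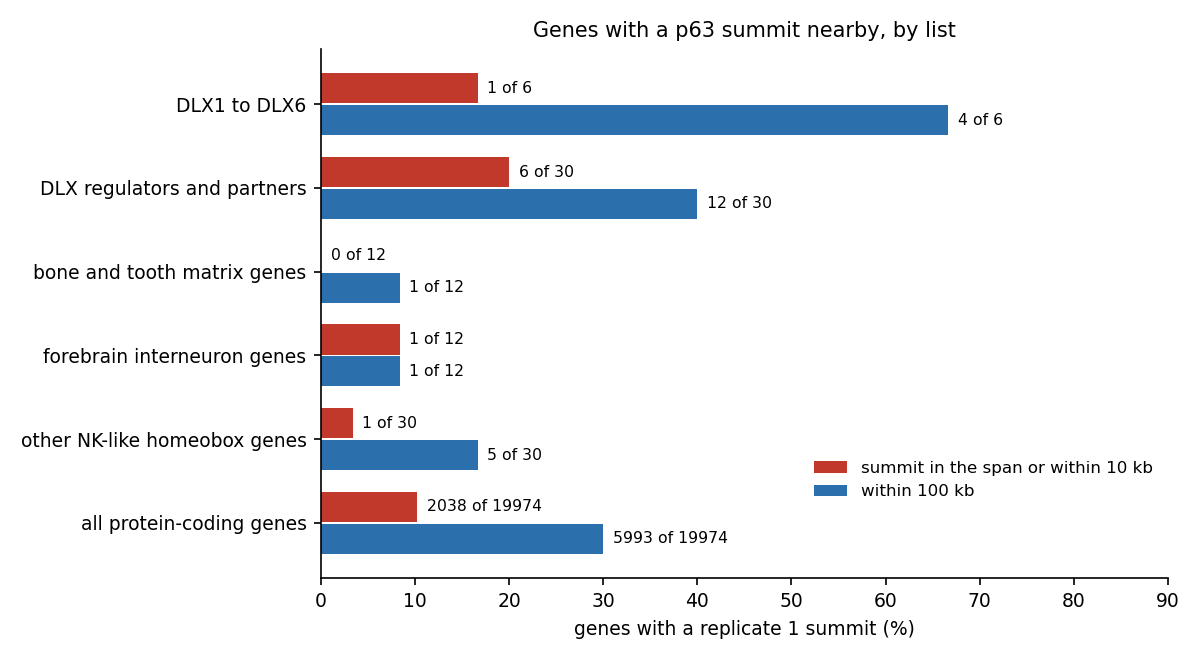
Bars give the percentage of genes (x axis) with a replicate 1 summit in the span or within 10 kb (red) and within 100 kb (blue), for the DLX genes, the 4 lists and all protein-coding genes, with counts at the bar ends. The DLX bar at 100 kb stands for 4 genes at 2 loci.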

How the data were processed

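ChIP-seq peak lists of 2 p63 IP samples from HSC-5 cells were used. Per the file headers, the authors called each list with MACS 1.4.2 against 1 control, not pooled, at a p cut-off of 1e-05, with 1 tag kept per position and the larger library scaled to the smaller. FastQC, Trimmomatic and Bowtie are named in the submitters' processing notes, with the build hg19. Duplicate removal took 42.7% of replicate 1 and 78.8% of replicate 2 IP tags, and with 1 tag per position the count of a strong, narrow peak is limited. The deposited tag count is the whole number of kept tags in a peak, not normalised. The authors' score column holds −10·log10 of the caller's p-value. The authors' fold column is the ratio of IP to local control, and their false discovery rate column is in percent (up to 0.18 in replicate 1). Folds and scores were used within a list only.

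The 3 sheets of replicate 1 held the same peaks, and the first was read. It was taken as GRCh38, since 83 of its peaks lie on contigs and 0 start beyond the last protein-coding gene of a chromosome in RefSeq GRCh38.p14, while replicate 2 had 31 such peaks on 12 chromosomes. Replicate 2 was therefore not placed on genes, and no coordinate was converted. A summit is the start plus the deposited offset, and distances run from the summit to the gene span or pair span. Spacing was matched with offsets up to 5 Mb, peaks under 1 kb wide, supporting pairs over 2 kb and under 10 Mb away, and each peak used once. Intervals on tags are exact 95% Poisson intervals. Python 3.11.15, numpy 2.4.6, pandas 2.3.3 and scipy 1.17.1 were used. Named are the 6 DLX genes, the genes nearest to and between their peaks, genes with the same peaks, and list members with a summit within 10 kb. The members, lists and matching setting were chosen with earlier results of these data known. Alternatives changed the window, the peak filters and the matching.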

Additional observations from a re-analysis of the deposited data

How the results depend on the processing

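Counts of peaks within 500 kb (4 at DLX1/DLX2, 2 each at DLX5/DLX6 and DLX3/DLX4) depend on window and filter. In the same order they were 2, 0 and 1 within 100 kb, and 2, 1 and 1 within 250 kb. Within 1 Mb they were 6, 4 and 6, so DLX1/DLX2 and DLX3/DLX4 were equal. At a score of 100 or more they were 1, 0 and 0, and with 10 or more tags 2, 0 and 0. DLX genes with a summit were 2 within 50 kb in place of 1 within 10 kb. At a score of 100 or more they numbered 0 within 10 kb, 0 within 50 kb, 1 within 100 kb and 2 within 500 kb. At that score, within 100 kb, 7 regulators and partners, 0 bone and tooth genes and 1 homeobox gene were left, and within 10 kb 0 interneuron and 0 homeobox genes. The shares of all genes at that score are not given here. The filtered counts therefore have no background beside them, and the unfiltered shares above do not apply to them. Matched peaks at the DLX pairs numbered 0 at a tolerance of 20 bp, 0 in blocks of 2 Mb and 0 by direct overlap of at least 1 bp, which the differing numberings make void. With 1 supporting pair they numbered 2, the ITGA6 peak being added at an offset 91.606 kb from that of the matched site. Its partner was the 7-tag peak 92 bp wide. The alignment on the matched site places this partner 91.606 kb from the ITGA6 peak, so the 2 matches conflict under that alignment. Of the alternatives run, 37 left a count within 1.5 times and 28 did not. Fewer peaks under stricter filters and narrower windows follow from their construction; the cause was not tested otherwise. No paired analysis was possible because no Input values were analysed and no test was run. Leaving out a replicate was not run, since a match needs both lists and replicate 2 is not placed on genes. Counting error is largest, relative to the count, for the weakest peaks: at 8 tags the 95% interval spans 3.45 to 15.8.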
